A study of Mus musculus with 10 samples.

Results

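The 40 genes described here encode plasma proteins of blood coagulation and of complement that are made chiefly by hepatocytes. They were chosen by name, as clotting factors, the fibrinogen chains, anticoagulants, the fibrinolytic system, and the components and regulators of complement, and all 40 were found among the 55421 gene identifiers of the count table. Poly(A) RNA was sequenced from whole livers of 10 male mice, injected with virus at 6 months of age and examined 3 weeks later. The H3.3 KO group held 4 H3f3a fl/fl, H3f3b fl/fl C57BL/6 mice given AAV8 Tbg-Cre, an adeno-associated virus that carries Cre recombinase. H3f3a and H3f3b both encode the histone variant H3.3. The WT Cre controls were 3 wildtype mice given the same AAV8 Tbg-Cre, and the MCS controls were 3 mice of the floxed genotype given AAV8 Tbg-MCS, which carries no Cre. All 10 mice thus received AAV8, WT Cre controls and KO mice shared Cre, and MCS controls and KO mice shared the floxed alleles. The Tbg promoter acts in hepatocytes, so the other cells of the liver were meant to keep H3.3. Floxed mice carry HIRA fl/fl as their genotype label, but their titles and the design text name H3f3a and H3f3b, and the titles were followed.

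Coagulation is a cascade of proteases that ends when thrombin cuts fibrinogen into fibrin, held in check by antithrombin and the protein C system, while plasmin dissolves the clot. Complement is a second plasma cascade, started by antibodies, by lectins that bind sugars or by spontaneous turnover of C3, and ending in a pore built from C5b to C9. Hepatocytes secrete nearly all of these proteins, several are released in larger amounts in the acute phase response, and macrophages and other cells add some complement components.

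Libraries held 14998426 to 26096141 counts, and KO liver 1 had the lowest total. H3f3a ran from 59.9 to 63.7 CPM (counts relative to the TMM-adjusted library size) in the controls and from 16.0 to 19.0 CPM in KO, and H3f3b from 136 to 204 CPM and from 39.8 to 56.7 CPM. Hira ran from 5.48 to 8.71 CPM in the controls and from 6.26 to 6.68 CPM in KO, with no call (adjusted p = 0.477). The liver label was checked by 10 hepatocyte markers, which summed to 124183 to 175006 CPM in the controls and 126420 to 136746 CPM in KO, and none was at 0 in any library. Of these, 5 were lower and 1 higher in KO. All 10 markers of Kupffer cells and macrophages were higher in KO, with sums of 240 to 449 CPM in controls and 563 to 1225 CPM in KO, as were all 8 of stellate cells and fibroblasts (214 to 274 and 485 to 776 CPM), and none of either list was at 0. In the other lists 1 of 6 endothelial, 5 of 6 lymphoid, 1 of 4 biliary and 3 of 3 neutrophil markers were higher, none was lower, and the 4 platelet markers did not pass (adjusted p from 0.102 to 0.871). In RNA from whole liver, fewer cells of a type and less RNA per cell cannot be told apart. KO liver 1 stood apart from KO livers 2 to 4 in several of the 40 genes below, and their values without it are given there.

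The design compares livers with and without hepatocyte H3.3, with controls for the virus and for the floxed alleles. All 40 genes passed the filter of at least 10 counts in total, as did 22449 genes in all. In KO livers against all 6 controls, 18 of the 40 were lower and 9 were higher at an adjusted p under 0.05 (edgeR's quasi-likelihood test), and 13 did not pass. Scaled by library size only, 16 were lower and 11 higher, while over all genes the 3726 lower and 4429 higher became 2172 and 5635, with the median of all genes shifted to 0.17. The share that was lower, 45.0%, stood beside 16.6% of all genes tested and 28.6% of the 7787 genes with a control mean of at least 10 CPM, a level that all 40 exceeded. The share that was higher, 22.5%, was near the 19.7% of all genes, and beside 14.3% of the genes of at least 10 CPM. With a log2 fold change beyond 1 as well, 10 were lower and 3 higher, against 5.79% and 12.9% of all genes. The median log2 fold change of the 40 was -0.22, that of all genes -0.0030 and that of genes of at least 10 CPM -0.11. Single genes ran from -1.73 (Fgb) to 1.30 (C6). All KO livers lay below all controls in 16 of the 40 and above them in 5, compared with 12% and 12.5% of all genes.

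**Figure D1:**
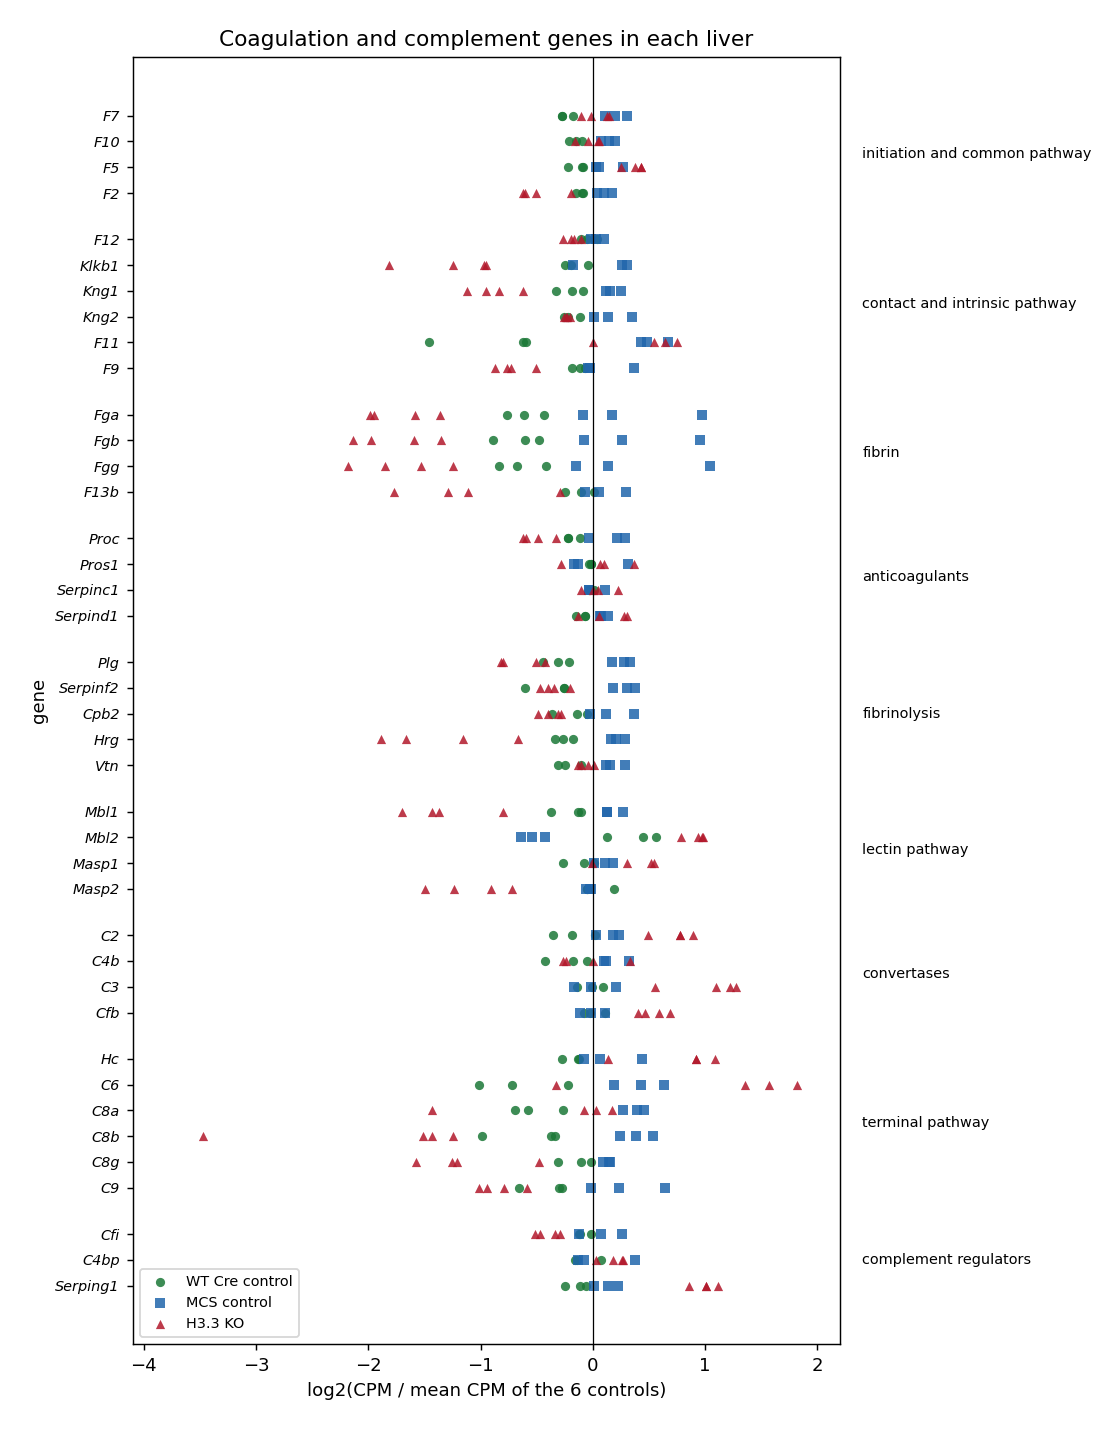
Each point is 1 liver, and the horizontal axis gives the log2 ratio of its CPM to the mean of the 6 controls for each of the 40 genes, grouped by role (green circles WT Cre, blue squares MCS, red triangles KO). The fibrinogen genes, Klkb1, Hrg, Mbl1 and Masp2 sit to the left in all 4 KO livers, C3, Serping1, C2, Cfb and Mbl2 to the right, and KO liver 1 stands apart in C8b at the far left.

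The regions before the 2 genes that fell most and the 2 that rose most are shown because these genes set the range of the response, and because Fga and Fgb are neighbours that fell together. The sequences are from RefSeq promoters of build GRCm38.p6 (mm10), on the gene's own strand and 5′ to 3′, and stop before the start of the gene in both RefSeq and GENCODE. Capitals mark matches to the letters of a C/EBP motif (TTGCGCAA or TTGCNNAA) or of a STAT motif (TTCNNNGAA), searched on both strands. Fgb lies on the minus strand at chr3:83049864-83050113, with 250 bases shown. Fga lies on the plus strand at chr3:83025903-83026075, with 173 bases shown. C6 lies on the plus strand at chr15:4726960-4727174, with 215 bases shown and no match to these letters. C3 lies on the minus strand at chr17:57228137-57228386, with 250 bases shown.
Fgb: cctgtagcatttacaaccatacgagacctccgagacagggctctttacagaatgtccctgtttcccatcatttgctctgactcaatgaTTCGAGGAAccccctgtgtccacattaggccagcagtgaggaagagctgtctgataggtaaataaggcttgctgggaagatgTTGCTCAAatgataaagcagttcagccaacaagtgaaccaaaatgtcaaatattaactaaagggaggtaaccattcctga
Fga: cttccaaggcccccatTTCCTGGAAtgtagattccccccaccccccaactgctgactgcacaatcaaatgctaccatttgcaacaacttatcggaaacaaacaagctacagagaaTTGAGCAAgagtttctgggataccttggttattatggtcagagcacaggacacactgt
C6: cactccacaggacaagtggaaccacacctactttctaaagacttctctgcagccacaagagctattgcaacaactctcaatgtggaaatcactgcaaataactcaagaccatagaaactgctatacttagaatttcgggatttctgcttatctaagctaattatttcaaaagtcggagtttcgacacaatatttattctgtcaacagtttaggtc
C3: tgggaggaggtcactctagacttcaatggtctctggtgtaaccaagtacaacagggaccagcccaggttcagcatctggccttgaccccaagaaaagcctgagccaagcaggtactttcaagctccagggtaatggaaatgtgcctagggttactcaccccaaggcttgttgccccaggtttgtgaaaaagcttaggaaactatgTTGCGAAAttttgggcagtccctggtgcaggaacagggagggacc

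In Fgb the C/EBP letters began 80 bases and the STAT letters 162 bases before the RefSeq start, and in Fga 135 and 234 bases before it. In C3 the C/EBP letters began 45 bases before the start. Promoters of 31 of the 40 genes were found among 32851, and C2, C4b, Cfb, Cfi, Kng1, Masp1, Plg, Proc and Serping1 were not matched. The C/EBP letters were in 9 of the 31 (C3, C9, F11, F9, Fga, Fgb, Hrg, Klkb1 and Kng2) and in 9.56% of all promoters of this length. The STAT letters were in 6 (C8a, F9, Fga, Fgb, Masp2 and Pros1) and in 7.02% of all, and TATAAA in 3 (Hc, Klkb1 and Vtn) and in 12.4%. Of the motifs reported here, neither the HNF4 letters AAAGTCCA or CAAAGTCC (1.83% of all) nor the E-box CACGTG (6.02%) was found in the 31. STAT and C/EBP matches stood together in Fga, Fgb and F9, which were lower in KO, as were 14 of the 31 in all. The C/EBP letters were in 6 of these 14 and in 1 of the 5 that were higher. The STAT letters were in 4 and 0 of them. The share of all promoters that hold both motifs was not counted. A match is a run of letters and not a shown site.

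Fibrin is the fibre of the clot, built from fibrinogen, a hexamer of paired Aα, Bβ and γ chains encoded by Fga, Fgb and Fgg, and crosslinked by factor XIII, whose plasma carrier subunit is encoded by F13b. All 4 of these genes were lower in KO, and the fibrinogen genes together with C8b fell the most of the 40. Fga (chr3:83026076-83033627, mm10) was at 3340, 3780 and 3010 CPM in WT Cre livers 1 to 3, at 4804, 5756 and 10033 CPM in MCS livers 1 to 3, and at 1991, 1712, 1293 and 1324 CPM in KO livers 1 to 4. Every KO liver lay below every control, and MCS liver 3 was far above the others. The mean fell from 5121 ± 2610 (SD, n = 6) to 1580 ± 334 CPM (SD, n = 4), a log2 fold change of -1.70 ± 0.33 (SE, adjusted p = 0.00234). Fgb (chr3:83040141-83049863) was at 2960, 3223 and 2424 CPM in WT Cre, at 4268, 5369 and 8725 CPM in MCS, and at 1765, 1492, 1144 and 1020 CPM in KO livers. Its groups did not overlap, in the same order as for Fga, and its log2 fold change was -1.73 ± 0.36 (adjusted p = 0.00318). Fgg (chr3:83007724-83015049) was at 2370, 2829 and 2112 CPM in WT Cre, at 3404, 4143 and 7810 CPM in MCS, and at 1595, 1308, 1046 and 831 CPM in KO livers, a log2 fold change of -1.66 ± 0.37 (adjusted p = 0.0057). Again MCS liver 3 was the highest and the KO livers the lowest. Against the WT Cre controls alone the fall was smaller, with log2 fold changes of -1.10 for Fga, -1.08 for Fgb and -1.03 for Fgg, than against the MCS controls, with -2.12, -2.18 and -2.10. The kinds of control did not pass the test against each other for any of the 3 genes (adjusted p = 0.104, 0.0962 and 0.18).

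F13b (chr1:139501702-139523752) was at 189, 158 and 174 CPM in WT Cre, at 179, 195 and 230 CPM in MCS, and at 154, 86.9, 76.6 and 54.8 CPM in KO livers. KO liver 1 was close to the lowest control and the other 3 were at a lower level, with no overlap. The log2 fold change was -1.01 ± 0.24 (adjusted p = 0.00604), and -1.37 without KO liver 1.

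The 3 fibrinogen genes lie within one stretch of chromosome 3 and moved in step within each liver. The gap between Fgg and Fga was 11026 bp and between Fga and Fgb 6513 bp. The log2 ratio of Fgb to Fga counts was -0.20 ± 0.071 (SD, n = 6) in controls and -0.23 ± 0.097 (SD, n = 4) in KO, a difference of -0.033 (exact permutation test, two-sided, p = 0.529, adjusted over 6 ratios 0.634). The Fgg to Fga ratio differed by 0.038 (exact permutation test, p = 0.638, adjusted 0.638). Among the KO livers both ratios were lowest in KO liver 4, at -0.38 and -0.67. Fibrinogen genes took 0.773% to 0.979% of all counts in WT Cre, 1.17% to 2.28% in MCS and 0.353% to 0.548% in KO livers. By FPKM, a value per transcript length, Fga and Fgg had ranks 2 and 3 of the 40 genes in controls, at medians of 1628 and 1412 FPKM, and were at 660 and 610 FPKM in KO.

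**Figure D2:**
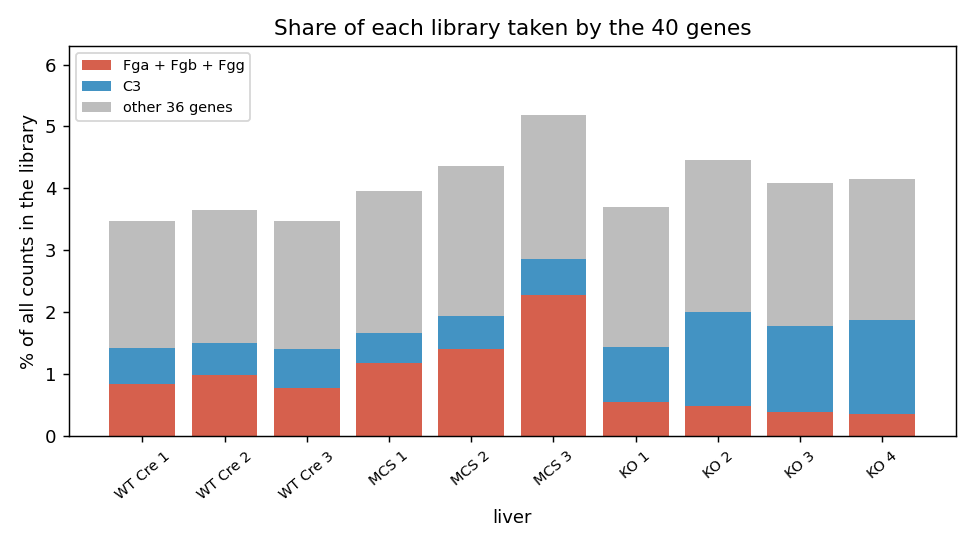
Bars give, for each liver, the percentage of all counts that fell on the 40 genes, split into fibrinogen genes (red), C3 (blue) and the other 36 genes (grey). Fibrinogen genes took at most 0.548% in KO and at least 0.773% in controls, while C3 took 0.882% to 1.52% in KO and at most 0.637% in controls.

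As a share of each library, the 40 genes together differed less than their parts. They took 3.47% to 3.65% of counts in WT Cre, 3.96% to 5.18% in MCS and 3.70% to 4.46% in KO livers. Without the fibrinogen genes and C3 the share was 2.05% to 2.14% in WT Cre, 2.30% to 2.41% in MCS and 2.27% to 2.46% in KO. As shares of all counts, KO livers thus overlapped the MCS controls and lay above the WT Cre controls in that remainder. These shares are not scaled by TMM, unlike CPM. The TMM factors were 1.02 to 1.11 in KO, 0.977 to 1.02 in WT Cre and 0.858 to 0.941 in MCS livers. The order of the groups in CPM therefore need not be the same.

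Clotting starts when factor VII meets tissue factor and runs through factors X and V to prothrombin (F2). In this group F2 was lower and F5 higher in KO, while F7 and F10 did not pass. F2 fell from 1810 ± 162 (SD, n = 6) to 1306 ± 190 CPM (SD, n = 4), without overlap, a log2 fold change of -0.47 ± 0.12 (adjusted p = 0.00988). F5, the cofactor of factor Xa, went from 495 ± 58.8 to 641 ± 36.1 CPM (SD, n = 6 and 4), a log2 fold change of 0.37 ± 0.11 (adjusted p = 0.0188), and KO liver 3 lay just below MCS liver 3. Without KO liver 2 the adjusted p of F5 was 0.0509. F7 was at 87.1, 81.5 and 81.6 CPM in WT Cre, at 113, 122 and 107 CPM in MCS, and at 97.7, 109, 108 and 91.6 CPM in KO livers. KO livers 1 and 4 lay between both kinds of control and KO livers 2 and 3 just above the lowest MCS liver, with log2 fold changes of 0.28 against WT Cre (adjusted p = 0.0575) and -0.17 against MCS (adjusted p = 0.239). F10, which lies 1498 bp downstream of F7, was at 465 ± 53.9 CPM in controls and 457 ± 30.2 CPM in KO (SD, n = 6 and 4; adjusted p = 0.892).

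The contact system, in which factor XII, prekallikrein (Klkb1) and kininogen act on factor XI and then factor IX, held 3 genes that were lower and none that was higher against all controls. Klkb1 (chr8:45266689-45294859) was at 199, 221 and 191 CPM in WT Cre, at 281, 273 and 201 CPM in MCS, and at 118, 117, 96.3 and 64.6 CPM in KO livers. The groups did not overlap, and the log2 fold change was -1.21 ± 0.18 (adjusted p = 0.000244). Its neighbour F11, at a gap of 4657 bp on the same strand, did not pass against all controls pooled (0.51 ± 0.39, adjusted p = 0.346), but F11 passed against the mean of both control kinds in the fit of 3 groups (0.67, adjusted p = 0.0116). F11 (chr8:45241174-45262031) was at 47.4, 48.2 and 26.6 CPM in WT Cre, at 102, 98.1 and 116 CPM in MCS, and at 73.2, 123, 107 and 114 CPM in KO livers. Here the controls themselves parted: WT Cre controls were lower than MCS controls by a log2 fold change of -1.37 (adjusted p = 0.018), KO was higher than WT Cre by 1.36 (adjusted p = 0.00119), and KO differed from MCS by -0.02 (adjusted p = 0.965).

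F9, the protease that is missing in haemophilia B, fell from 231 ± 34.1 (SD, n = 6) to 141 ± 15.3 CPM (SD, n = 4), without overlap (-0.71 ± 0.12, adjusted p = 0.000763). F12 was at 543 ± 27.4 CPM in controls and 479 ± 21.6 CPM in KO. All 4 KO livers were below all controls, yet the test did not pass (-0.18 ± 0.09, adjusted p = 0.15), whereas DESeq2 called F12 lower (-0.16, adjusted p = 0.0237). Kng1, a kininogen gene from which bradykinin is released, fell from 2067 ± 315 to 1128 ± 165 CPM (SD, n = 6 and 4; -0.87 ± 0.15, adjusted p = 0.000576). Its close copy Kng2 was at 268 ± 44.2 and 229 ± 3.41 CPM (-0.23 ± 0.12, adjusted p = 0.167). The ratio of Kng2 to Kng1 counts was higher in every KO liver than in every control, by 0.66 on the log2 scale (exact permutation test, two-sided, p = 0.00476, the smallest that 210 splits allow, adjusted 0.0143). How reads matching both copies were counted was not stated, so the split between Kng1 and Kng2 is uncertain.

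Among the anticoagulants, protein C (Proc) was lower and the other 3 did not pass. Proc fell from 462 ± 71.3 (SD, n = 6) to 326 ± 30.4 CPM (SD, n = 4; -0.50 ± 0.13, adjusted p = 0.0087), without overlap. Pros1, the protein S cofactor of protein C, was at 55.5 ± 6.92 and 58.6 ± 10.5 CPM (adjusted p = 0.66). Serpinc1, antithrombin, was at 2169, 2114 and 2093 CPM in WT Cre, at 2103, 2310 and 2100 CPM in MCS, and at 2503, 2224, 2154 and 1993 CPM in KO livers. It held the highest control FPKM of the 40 genes (median 1852, and 2112 in KO), its groups overlapped, and its log2 fold change was 0.05 ± 0.11 (adjusted p = 0.771). By limma on log2(FPKM + 1) Serpinc1 was called higher, at 0.27 (adjusted p = 0.0363). Serpinc1 had rank 1 by FPKM but rank 17 when counts were divided by the length of all annotated exons. Serpind1, heparin cofactor II, was at 613 ± 46.8 and 674 ± 94 CPM (0.14, adjusted p = 0.393), and was called higher by limma on log2(FPKM + 1) (0.32, adjusted p = 0.0201) and with library size only (0.31, adjusted p = 0.0274).

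Fibrinolysis depends on plasminogen (Plg) and is slowed by α2-antiplasmin (Serpinf2) and by carboxypeptidase B2 (Cpb2). Hrg, histidine-rich glycoprotein, binds plasminogen and heparin, and vitronectin (Vtn) is an adhesive glycoprotein of plasma and matrix. Hrg, Plg and Cpb2 were lower against all controls, and Serpinf2 and Vtn did not pass. Hrg (chr16:22951072-22961656) was at 803, 758 and 720 CPM in WT Cre, at 1019, 1048 and 1113 CPM in MCS, and at 574, 408, 286 and 247 CPM in KO livers. The highest KO liver stood below the lowest control, and the log2 fold change was -1.26 ± 0.23 (adjusted p = 0.00109). Plg was at 1614, 1509 and 1379 CPM in WT Cre, at 2104, 2279 and 2361 CPM in MCS, and at 1393, 1318, 1076 and 1061 CPM in KO livers. KO liver 1 reached the lowest WT Cre value, and the fall passed against MCS (-0.89, adjusted p = 0.000405) but not against WT Cre (-0.31, adjusted p = 0.1). Serpinf2 was at 613, 614 and 484 CPM in WT Cre, at 833, 907 and 954 CPM in MCS, and at 529, 638, 576 and 555 CPM in KO livers. KO livers were near the WT Cre values, with a log2 fold change of 0.01 against WT Cre (adjusted p = 0.962) and -0.64 against MCS (adjusted p = 0.00208), and WT Cre was lower than MCS (-0.65, adjusted p = 0.0411). Serpinf2 was called lower against the mean of both control kinds in the fit of 3 groups (-0.32, adjusted p = 0.0329) and against all controls without WT Cre liver 3 (-0.44, adjusted p = 0.045). Cpb2 went from 334 ± 58.1 to 259 ± 16.6 CPM (SD, n = 6 and 4; -0.37 ± 0.13, adjusted p = 0.0434), and that call was lost in 14 of 21 alternative analyses, among them those without WT Cre liver 2, any MCS liver or any KO liver (adjusted p from 0.0617 to 0.0823). Vtn was at 2005, 2311 and 2089 CPM in WT Cre, at 2686, 3034 and 2757 CPM in MCS, and at 2408, 2497, 2270 and 2302 CPM in KO livers, within the span of the controls (-0.07 ± 0.14, adjusted p = 0.743).

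**Figure D3:**
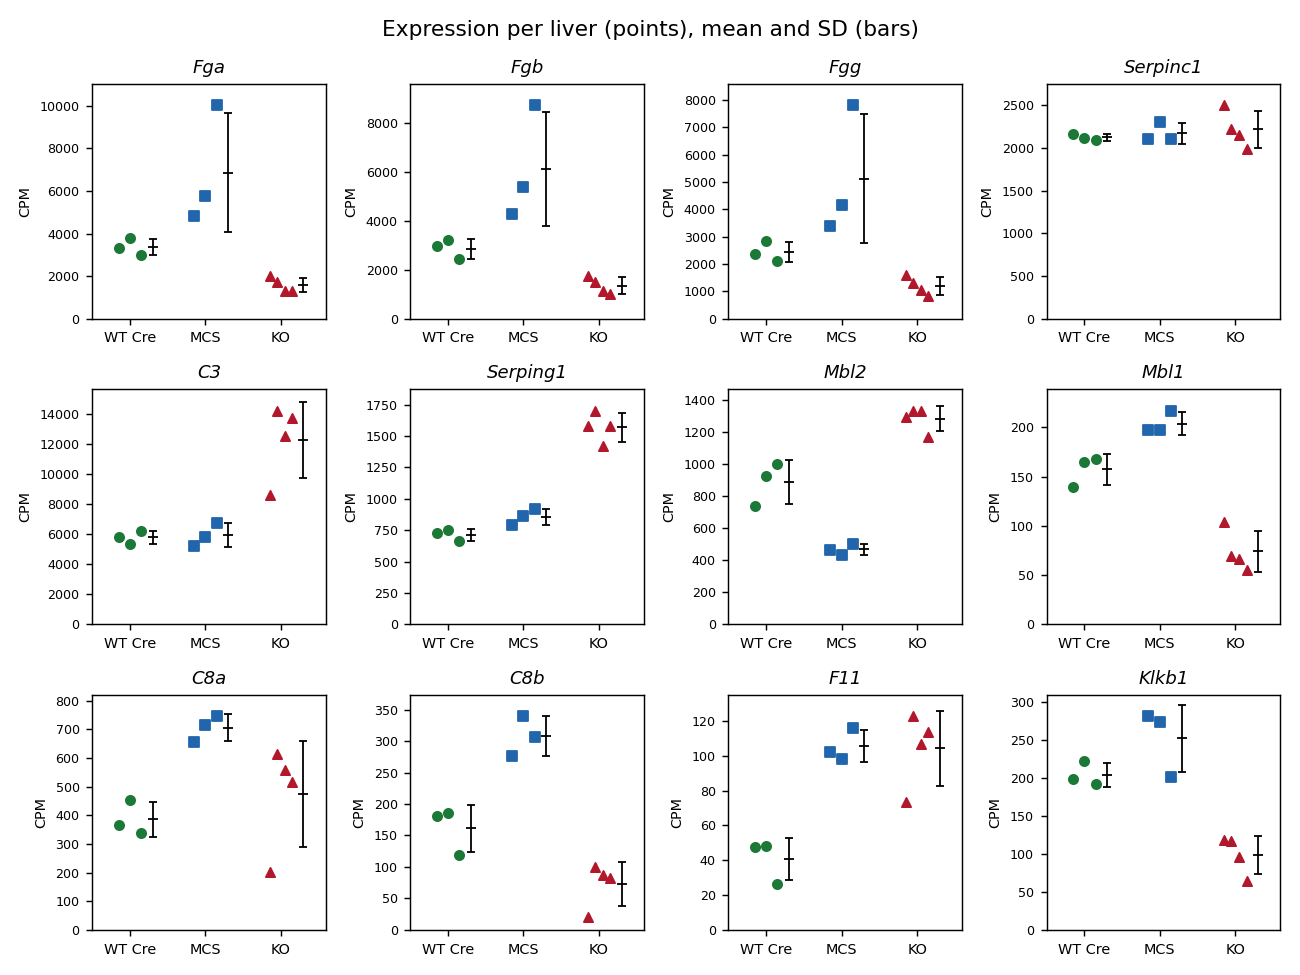
CPM of 12 of the genes in each liver (points) with the mean and SD of each group (black bars), on axes that start at 0 and differ between panels. MCS liver 3 is the highest of all in Fga, Fgb and Fgg, the F11 and Mbl2 values part the WT Cre from the MCS controls, and KO liver 1 lies apart from the other KO livers in C8a, C8b and C3.

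The lectin pathway starts with mannose-binding lectins, Mbl1 and Mbl2, that carry the proteases Masp1 and Masp2. Within each of these pairs 1 gene was lower and the other higher in KO. Mbl1 (chr14:41151458-41159601) was at 139, 165 and 168 CPM in WT Cre, at 197, 197 and 217 CPM in MCS, and at 104, 69.8, 66.7 and 55.6 CPM in KO livers, without overlap (-1.29 ± 0.18, adjusted p = 0.000124). Mbl2 (chr19:30232942-30239687) was at 737, 923 and 1000 CPM in WT Cre, at 464, 433 and 503 CPM in MCS, and at 1293, 1330, 1332 and 1167 CPM in KO livers (0.92 ± 0.23, adjusted p = 0.00776). The 3 groups of Mbl2 formed 3 separate levels, with WT Cre above MCS (0.93, adjusted p = 0.00714) and KO above both (0.53, adjusted p = 0.00966, and 1.46, adjusted p = 1.88e-05). The log2 ratio of Mbl2 to Mbl1 counts was higher in KO by 2.31, a fold of 4.95 (exact permutation test, two-sided, p = 0.00476, the smallest possible, adjusted 0.0143). By FPKM the Mbl2 to Mbl1 ratio had a median of 4.34 in controls and 23.0 in KO. This ratio also parted the controls, with mean log2 ratios of counts of 2.49 in WT Cre, 1.20 in MCS and 4.15 in KO livers.

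Masp2 (chr4:148602554-148615499) was at 169, 144 and 144 CPM in WT Cre, at 148, 147 and 143 CPM in MCS, and at 90.7, 79.4, 63.1 and 52.8 CPM in KO livers. The controls were tight and every KO liver lay below them (-1.06 ± 0.14, adjusted p = 9.8e-05). Masp1 went from 156 ± 16.2 (SD, n = 6) to 200 ± 33.4 CPM (SD, n = 4; 0.36 ± 0.12, adjusted p = 0.0384). KO liver 1 lay among the controls at 155 CPM, and the log2 fold change was 0.46 without it. The call of Masp1 was lost without any of the WT Cre livers, MCS liver 3, KO liver 2 or KO liver 3 (adjusted p from 0.0515 to 0.109).

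C3 is the hub of complement, cut by convertases made of C4 and C2 or of C3 and factor B (Cfb). C3, C2 and Cfb were higher in every KO liver than in every control, and C4b did not pass. C3 (chr17:57203970-57228136) was at 5822, 5315 and 6221 CPM in WT Cre, at 5217, 5810 and 6769 CPM in MCS, and at 8619, 14222, 12544 and 13692 CPM in KO livers. KO liver 1 was the lowest of the KO livers and still above all controls, and the log2 fold change was 1.07 ± 0.15 (adjusted p = 0.000159), or 1.20 without it. C3 had a median of 879 FPKM in controls, rank 5 of the 40, and at 2317 in KO. C2 rose from 46.6 ± 6.96 (SD, n = 6) to 77.9 ± 8.86 CPM (SD, n = 4; 0.74 ± 0.12, adjusted p = 0.000476). Cfb rose from 167 ± 10.8 to 242 ± 21.8 CPM (SD, n = 6 and 4; 0.54 ± 0.10, adjusted p = 0.000789). C2 and Cfb are neighbours on one strand with 85 bp between them, and both overlap Gm20547, a gene of that strand, so reads could be shared among them. C4b was at 1233 ± 215 and 1213 ± 243 CPM (adjusted p = 0.926), and its close copy C4a makes that value uncertain. C3, C2 and Cfb are also made by macrophages and fibroblasts, whose markers were higher in KO as given above, and the part of those cells in these values was not tested.

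C5 (Hc), C6, C8 and C9 build the pore of the terminal pathway, and C8 is a protein of 3 chains encoded by C8a, C8b and C8g. Here 3 genes were lower, 2 were higher and C8a did not pass. C8b (chr4:104766317-104804548) was at 181, 185 and 119 CPM in WT Cre, at 277, 340 and 306 CPM in MCS, and at 21.1, 99.2, 86.9 and 82.2 CPM in KO livers. All KO livers were below all controls and KO liver 1 was far below the rest, and the log2 fold change was -1.69 ± 0.45 (adjusted p = 0.0156), or -1.39 without that liver (adjusted p = 0.00773). C8g (chr2:25498651-25501719) was at 335, 386 and 410 CPM in WT Cre, at 462, 460 and 442 CPM in MCS, and at 298, 180, 174 and 139 CPM in KO livers, without overlap. KO liver 1 was here the highest of the KO livers, and the log2 fold change was -1.07 ± 0.19 (adjusted p = 0.000778), or -1.34 without it.

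C8a (chr4:104815679-104876398) lies 11130 bp from C8b on the opposite strand, and was at 366, 454 and 337 CPM in WT Cre, at 657, 716 and 747 CPM in MCS, and at 203, 616, 558 and 516 CPM in KO livers. KO liver 1 lay below all controls and the others between both kinds of control, and the log2 fold change was -0.21 ± 0.33 (adjusted p = 0.669), or 0.04 without KO liver 1 (adjusted p = 0.913). The log2 ratio of C8a to C8g counts differed by 0.87 (exact permutation test, two-sided, p = 0.129, adjusted 0.257) and by 1.45 without KO liver 1 (adjusted p = 0.0238, exact permutation test). KO liver 1 was the KO liver that lay the other way in this ratio. The p-value without it therefore follows from which liver was left out, and no conclusion is drawn from it. The ratio of C8b to C8g differed by -0.70 (exact permutation test, p = 0.333, adjusted 0.5) and by 0.03 without that liver. KO livers 2 to 4 had C8a to C8g log2 ratios of 1.77, 1.68 and 1.89, above every control, and KO liver 1 had -0.56, below every control.

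C6 (chr15:4727175-4814967) was at 111, 157 and 90.3 CPM in WT Cre, at 208, 246 and 283 CPM in MCS, and at 145, 466, 543 and 646 CPM in KO livers. KO liver 1 lay among the controls and the other 3 above them all, and the log2 fold change was 1.30 ± 0.43 (adjusted p = 0.0392), or 1.60 without KO liver 1 (adjusted p = 0.00526). The call was lost in 11 of 21 alternative analyses, 7 of which left out 1 of WT Cre livers 1 to 3, MCS liver 1 or KO livers 2 to 4 (adjusted p from 0.0537 to 0.118). Hc rose from 776 ± 145 (SD, n = 6) to 1358 ± 346 CPM (SD, n = 4; 0.81 ± 0.18, adjusted p = 0.00377), with KO liver 1 at 854 CPM below MCS liver 3 at 1050 CPM, and the log2 fold change was 0.98 without KO liver 1. C9 fell from 429 ± 142 to 242 ± 31.9 CPM (SD, n = 6 and 4; -0.82 ± 0.22, adjusted p = 0.0105), and its groups overlapped because WT Cre liver 1 was at 271 CPM.

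Among the regulators of complement, C1 inhibitor (Serping1), which also blocks kallikrein and factor XII, was higher and factor I (Cfi), which cuts C3b and C4b, was lower. Serping1 (chr2:84765387-84775444) was at 726, 754 and 662 CPM in WT Cre, at 788, 861 and 915 CPM in MCS, and at 1576, 1703, 1419 and 1578 CPM in KO livers. Its groups were far apart, with a log2 fold change of 1.00 ± 0.12 (adjusted p = 3.96e-05, the smallest of the 40). The part of cells other than hepatocytes in the Serping1 values was not tested. Cfi fell from 670 ± 73.2 (SD, n = 6) to 507 ± 36.9 CPM (SD, n = 4; -0.40 ± 0.11, adjusted p = 0.0135), without overlap, and without KO liver 3 its adjusted p was 0.0509. C4bp, the cofactor of factor I for C4b, was at 649 ± 101 and 739 ± 54.6 CPM (0.19, adjusted p = 0.272), and was called higher by limma on log2(FPKM + 1) (0.41, adjusted p = 0.0229) and with library size only (0.38, adjusted p = 0.0195).

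**Figure D4:**
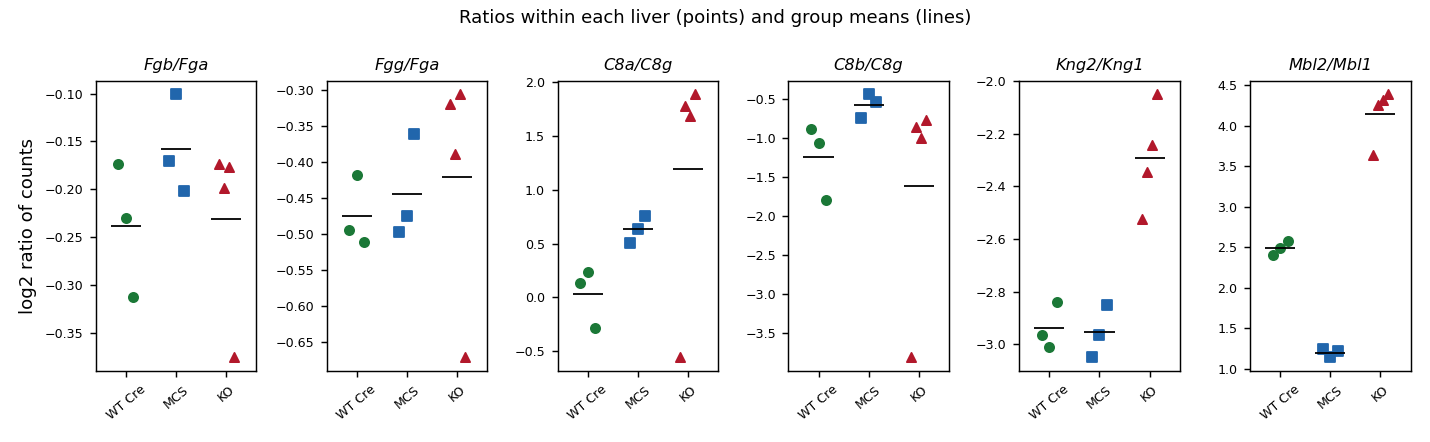
Each panel gives the log2 ratio of the counts of a pair of genes within each liver (points) and the group means (lines), on an axis of its own. The Fgb to Fga and Fgg to Fga ratios differ between KO and controls by 0.04 or less, Kng2 to Kng1 and Mbl2 to Mbl1 are higher in every KO liver, and KO liver 1 is at the bottom of both C8 panels.

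Neighbouring genes of the set did not always share a call. Of 8 pairs within 100 kb of each other, Fgg and Fga, and Fga and Fgb, were lower together, and Cfb and C2 were higher together. In Hrg and Kng2 (24197 bp), Kng2 and Kng1 (28382 bp), C8b and C8a (11130 bp), and F11 and Klkb1 (4657 bp) 1 gene was lower and the other did not pass. Of the genes that did not pass there, Kng2 (-0.23) and C8a (-0.21) had the sign of their neighbours, and F11 (0.51) did not. F7 and F10 both did not pass.

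The kind of control mattered to how many genes were called. Against the WT Cre controls, which share Cre with KO, 11 of the 40 were lower and 10 higher (beside 13.1% and 15.3% of all genes), with a median log2 fold change of -0.013. Against the MCS controls, which share the floxed genotype, 20 were lower and 6 higher (14.8% and 17.3% of all genes), with a median of -0.44, or 17 and 9 when scaled by library size only. These 2 comparisons use the same KO livers. In the direct comparison, F11 and Serpinf2 were lower and Mbl2 higher in WT Cre than in MCS livers (0.486% of all genes were lower and 0.441% higher), and the median log2 fold change of the 40 was -0.32, compared with 0 for all genes. The columns of the controls carry no group name and were matched to WT Cre and MCS by the number in the library name, so that values for 1 kind of control rest on this match.

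Both comparisons together sort the genes. Lower against each kind of control were Klkb1, Kng1, F9, Fga, Fgb, Fgg, F13b, Hrg, Mbl1, Masp2 and C8g. Higher against each were Mbl2, C2, C3, Cfb, Hc and Serping1. Lower against MCS, without passing against WT Cre, were F2, Kng2, Proc, Plg, Serpinf2, Cpb2, C8b, C9 and Cfi, of which Serpinf2 differed between the controls themselves. Higher against WT Cre, without passing against MCS, were F5, F11, Masp1 and C6, of which F11 differed between the controls. F7, F10, F12, Pros1, Serpinc1, Serpind1, Vtn, C4b, C8a and C4bp passed against neither.

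**Figure D5:**
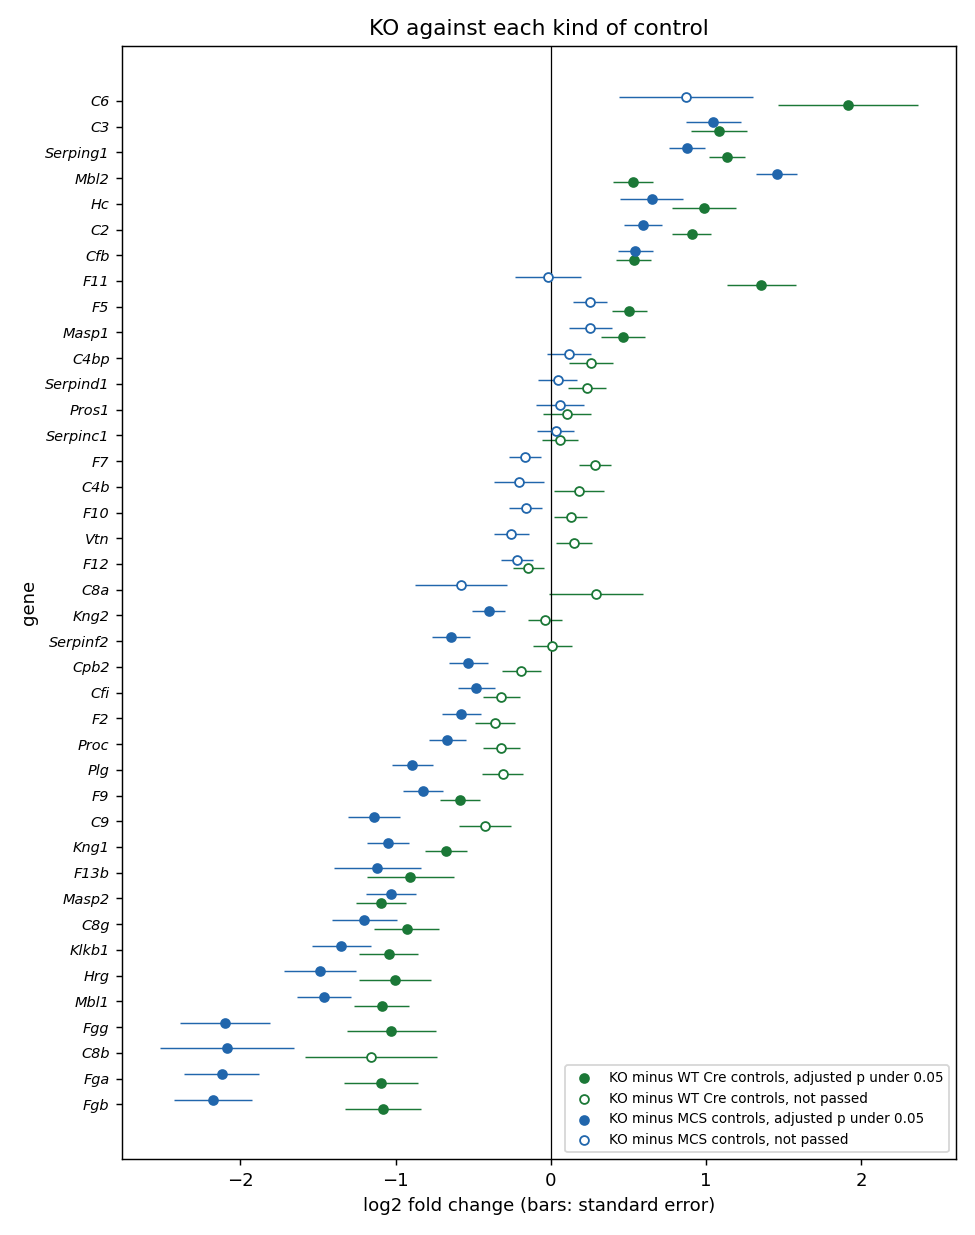
Points give the log2 fold change of KO against the WT Cre controls (green) and the MCS controls (blue) for each gene, ordered by the fold change against all controls, with bars for the SE and filled points for an adjusted p under 0.05. The fibrinogen genes lie at -1.03 to -1.10 against WT Cre and -2.10 to -2.18 against MCS, C3 at 1.08 and 1.05, and F11 at 1.36 and -0.02.

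Genes around the 40 were taken from lists named by their part in the pathways. In the vitamin K cycle, which lets factors such as prothrombin and factor IX bind calcium, Vkorc1 fell from 109 ± 8.32 (SD, n = 6) to 56.8 ± 16.1 CPM (SD, n = 4; -0.94, adjusted p = 0.000411) and the carboxylase Ggcx by 0.54 on the log2 scale (adjusted p = 0.000865). In the same list of 6, Furin, a protease that trims proproteins, was higher (1.21, adjusted p = 0.000103), as was Mcfd2, which helps to export factor V (0.44, adjusted p = 0.00568). Vkorc1l1 and Lman1 did not pass. Of 8 further liver relatives, Hgfac was lower (-1.44, adjusted p = 5.09e-06), Gas6 was higher (1.14, adjusted p = 0.0253) and 6 did not pass. Gas6 was at 75.9 to 90.4 CPM in WT Cre and 43.4 to 44.5 CPM in MCS livers. In KO livers 1 to 4 Gas6 was at 251, 111, 110 and 86.3 CPM, so KO liver 1 stood apart and KO liver 4 lay among the WT Cre values. Gas6 passed against MCS (1.67, adjusted p = 0.00391) but not against WT Cre (0.75, adjusted p = 0.104).

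Clotting genes that are expressed mainly outside hepatocytes were mostly at low levels. Of 13 listed, 12 were tested, of which 7 were higher and 1 was lower. Plat, the plasminogen activator tPA, rose from 0.557 ± 0.154 (SD, n = 6) to 3.76 ± 2.35 CPM (SD, n = 4; 2.75, adjusted p = 7.43e-05) and F13a1, the catalytic subunit of factor XIII, rose by 2.96 on the log2 scale (adjusted p = 0.00051). F3, tissue factor, fell from 3.44 ± 0.619 to 1.94 ± 1.06 CPM (SD, n = 6 and 4; adjusted p = 0.0257), and F8 and Vwf did not pass (adjusted p = 0.502 and 0.716).

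Of 13 further components of complement, 6 were higher. C1qa, C1qb and C1qc, the chains of C1q made by macrophages and counted among the macrophage markers above, were higher by 1.47, 1.56 and 1.56, and properdin (Cfp) by 1.36 (adjusted p = 0.0001). C1ra and C1s1 did not pass. Of 11 complement receptors and surface regulators, 6 were higher, C3ar1 (2.02), C5ar1 (2.33), Vsig4 (1.37), Itgam (2.63), Itgax (3.11) and Itgb2 (2.35), all carried by leukocytes, and Cr1l (-0.87) and Cd46 (-0.74) were lower. Cd46 was at very low levels, 0.838 to 1.38 CPM in controls and 0.506 to 0.650 CPM in KO. It did not pass against WT Cre (adjusted p = 0.0831, edgeR's test). Control means were also low in Itgam (0.350 CPM), Itgax (1.04 CPM) and C5ar1 (1.45 CPM).

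Among transcription factors and signalling genes of hepatocytes and the acute phase, Foxa2 was lower (-1.08, adjusted p = 0.00235), Prox1 was higher (0.69, adjusted p = 0.0023) and 13 did not pass. Hnf4a was at 731 ± 184 CPM in controls (SD, n = 6) and 499 ± 185 CPM in KO (SD, n = 4; adjusted p = 0.0763), and was lower against the MCS controls (-0.76, adjusted p = 0.0336) but did not pass against WT Cre (-0.31, adjusted p = 0.371). Cebpb did not pass against all controls (adjusted p = 0.83), was higher in KO than in WT Cre (0.49, adjusted p = 0.0355) and lower than in MCS (-0.50, adjusted p = 0.027), and Cebpb differed between the controls themselves (adjusted p = 0.0157), lower in WT Cre. Cebpa, Stat3 and Socs3 did not pass against all controls (adjusted p = 0.137, 0.905 and 0.528) or against either kind of control. In Stat3 and Socs3 MCS liver 3 was far above the other controls, at 277 CPM (the others 88.0 to 108) and 27.8 CPM (the others 3.57 to 6.65). KO livers were at 92.9 to 165 CPM in Stat3 and 6.58 to 16.8 CPM in Socs3. In Cebpa MCS liver 3 was the lowest control, at 312 CPM.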

How the data were processed

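Reads were trimmed by the authors with Trim Galore, aligned with STAR to mm10 and counted per gene with HOMER, per the methods of the study, while the submitters' processing notes name STAR, HTSeq and Cufflinks without saying which made which table. The deposited counts are whole numbers for 55421 identifiers without normalization. The authors also deposited FPKM values, which served for levels per length and as an alternative. Strand and multimapping settings were not given in the sources used here, although the library kit marks strand, so close copies (Kng1 and Kng2, C4b and C4a) and overlapping genes (C2 and Cfb with Gm20547, and others) are uncertain.

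Control columns 1 to 3 were taken as WT Cre and 4 to 6 as MCS by the number in the library names, and KO columns by the replicate number in the titles. Replicates were checked for libraries deposited more than once, and none was found (counts of a pair differed by 11.5 times the sampling noise or more, as chi-square per degree of freedom).

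Genes with at least 10 counts over the 10 samples were kept (22449 of 33924 with any count). The main test was edgeR 4.0.16 (R 4.3.3), quasi-likelihood, with TMM, robust dispersions and Benjamini-Hochberg adjustment over all genes tested. KO was compared with 6 pooled controls in a fit of 2 groups and with each kind in a fit of 3. The study used DESeq2, here an alternative. The script was tested on simulated data. SE is the log2 fold change over the square root of F. Ratios were compared by exact permutation of samples on counts plus 0.5 (scipy), adjusted over 6. Alternatives were DESeq2 1.42.0, limma voom (limma 3.58.1), other scalings and filters, limma on log2(FPKM + 1) and log2(FPKM + 0.1), a replicate block and each library left out.

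The members, lists and tests were chosen with earlier results of these data known. Values per liver are given for genes called with an absolute log2 fold change over 1, the 5 with the highest control FPKM, the 6 with the lowest adjusted p between control kinds and 4 with opposite signs against them. Promoters are of the 2 genes that fell most and the 2 that rose most, and their sequences are from RefSeq. For the 40 genes no FPKM cell was blank. Every library held at least 14998426 counts. Some genes and a motif of the lists are not reported here.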

Additional observations from a re-analysis of the deposited data

Results flagged for a closer look

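Among 80 sets of values (each gene in the 6 controls and in the 4 KO livers) 5 held a liver whose gap to the nearest other liver, relative to the whole range, was beyond Dixon's critical value, and chance gives about 1 in 20. MCS liver 3 was high among the controls in F9 (298 CPM, the others 203 to 226), Fgg (7810 CPM, the others 2112 to 4143) and Pros1 (68.9 CPM, the others 49.5 to 54.9). MCS liver 2 was high in Serpinc1 (2310 CPM, the others 2093 to 2169). WT Cre liver 1 was high in Masp2 (169 CPM, the others 143 to 148).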

How the results depend on the processing

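Of the 27 genes called against all controls, 17 kept direction and call in all 21 alternatives, and 10 lost the call in at least 1. The numbers of the 40 genes called against all controls, WT Cre or MCS stayed within 1.5 times, from 13 to 19 lower and 6 to 12 higher against all controls. The median log2 fold change of the 40 moved from -0.22 to -0.022 with library size only, which shifted the median of all genes to 0.17. For the 40 it was -0.14 with limma on log2(FPKM + 1), with or without the filter, and -0.14 on log2(FPKM + 0.1). Without 1 library the median of the 40 was between -0.28 and -0.17. Between WT Cre and MCS, 11 genes were lower with DESeq2, 1 with library size only, 4 without the filter and 0 to 7 without 1 library (7 without KO liver 1), and 0 to 1 were higher without 1 library. The cause was not tested.

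Called genes that lost the call, other than by leaving out a library or the block, were C6 (limma voom, adjusted p = 0.073; no filter, 0.0807; FPKM with no filter, 0.0623), Cpb2 (RLE size factors, 0.0581; library size only, 0.241; FPKM, 0.342 to 0.459), Cfi (library size only, 0.084; FPKM, 0.0843 to 0.0876), and, on FPKM with no filter, Proc (0.0527), Plg (0.0576) and C9 (0.0731). Of the 13 genes not called, 6 gained a call in at least 1 alternative: F12 (DESeq2, adjusted p = 0.0237), F11 (mean of both control kinds, 0.0116), Serpinf2 (the same, 0.0329; without WT Cre liver 3, 0.045), Serpinc1 (FPKM, 0.0316 to 0.0408), Serpind1 (FPKM, 0.0188 to 0.0265; library size only, 0.0274) and C4bp (FPKM, 0.0214 to 0.0415; library size only, 0.0195). Signs changed in 8 genes that were not called. With library size only the log2 fold change was 0.16 in F10, 0.12 in Vtn, 0.16 in C4b and 0.0052 in C8a. With limma on FPKM it was 0.15 in F10, 0.0090 in F12 (0.0091 with a pseudocount of 0.1), 0.13 in Vtn and 0.16 in C4b under each of the 3 settings. Without 1 library it ran from -0.0081 to 0.11 in F7, from -0.055 to 0.018 in F10, from -0.030 to 0.18 in Pros1, from -0.017 to 0.095 in Serpinc1, from -0.16 to 0.056 in C4b and from -0.35 to 0.045 in C8a, all without a call. Without 1 library the ratio differences ran from -0.056 to 0.015 (Fgb/Fga), from -0.00048 to 0.12 (Fgg/Fga), from 0.63 to 1.45 (C8a/C8g) and from -0.99 to 0.032 (C8b/C8g).

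Samples that shared a replicate number did not deviate together in every pair (correlations over 5000 genes from -0.17 to 0.22), so the numbers are not taken as pairs. With the replicate block the median log2 fold change of the 40 was -0.28, 13 genes were lower and 6 higher against all controls, and the adjusted p was 0.0599 in Fgg, 0.0636 in C8b, 0.0573 in Plg, 0.0668 in Cfi, 0.107 in Cpb2, 0.071 in F5, 0.0832 in Masp1 and 0.215 in C6. Under the block the log2 fold changes of F10 (0.017), Pros1 (-0.031) and C4b (0.035) changed sign. Replicate number 4 occurred only in KO, so under the block KO liver 4 carried no information on KO against controls. The lost calls and changed signs thus cannot be credited to the block alone. Without KO liver 4 and with no block, the log2 fold changes were 0.017 in F10, -0.030 in Pros1 and 0.051 in C4b.

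Over all genes, 3726 were lower against all controls in the main analysis, 2172 with library size only, and 2059, 2111 and 1666 with limma on log2(FPKM + 1), on log2(FPKM + 0.1) and without the filter. Against MCS 3312 were lower, and 1697 with library size only. Against WT Cre 2939 were lower, and 1949 without WT Cre liver 2. Between the controls 109 were lower and 99 higher, and 334 and 309 with DESeq2, 178 and 208 with the block, and 29 to 267 and 38 to 250 without 1 library.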
